A study of Homo sapiens with 12 samples.

Results

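The mitochondrial ribosomal protein genes are the nuclear genes whose protein products, together with ribosomal RNAs made inside the organelle, build the ribosome of mitochondria. They were taken from the deposited gene table as the protein-coding rows whose symbol is MRPL or MRPS followed by a number and at most 1 further letter. This rule found 79 of the 32010 rows, 49 with an MRPL name (large subunit) and 30 with an MRPS name (small subunit). The rule used no measured value. All 79 rows passed the filter on low counts, among 19424 genes tested, and they lie on 21 chromosomes. They stand for 78 symbols, because MRPS5 has 2 rows: the main one (ENSG00000289685, chromosome 2, 95085369 to 95122027) and a second, overlapping one (ENSG00000144029) with a mean CPM (count scaled to a library of 1 M) of 0.851 over the 12 libraries. How reads were divided between these rows is uncertain, so the second row is counted but not described further.

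The RNA came from HEK293 Flp-In cells, which descend from human embryonic kidney and hold a prepared genomic site for a transgene, and its poly(A) fraction was sequenced. The study asked whether exon 8 of TAF5, which encodes a subunit of the promoter-binding complex TFIID, affects gene expression. The 12 libraries formed 4 groups of 3. The siNT cells were given a non-targeting siRNA, and the siTAF5 cells were given 1 siRNA against TAF5. The FL cells were given that same siRNA and then an siRNA-resistant full-length TAF5, and the ΔE8 cells were given it and then a TAF5 without exon 8. Both transgenes sat in doxycycline-inducible lines, and the drug was applied 24 h after transfection for 48 h. The labels give different doses for FL and ΔE8, but the figures appear to have lost an exponent, so none is printed. The treatment label names siRNA and doxycycline for every library, and the labels do not say in which line the siNT and siTAF5 cells were grown. Nothing in the labels says that the replicates came from separate cultures, so p-values measure the spread between these libraries, which may be technical.

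Library totals ran from 41.8 to 62.5 M estimated counts. TAF5 was at 39.2, 40.5 and 40.2 CPM in the 3 siNT libraries, and at 6.13, 7.35 and 6.68 in the siTAF5 ones. It was at 103, 106 and 107 in FL and at 87.6, 87.5 and 88.9 in ΔE8, where the count includes the transgene as far as its reads map to the gene. TAF5 was therefore lowest in every siTAF5 library and above siNT in every FL and ΔE8 library. The 7 marker genes chosen for HEK293 cells were counted in every library, from NEFM at 38 to 104 estimated counts to VIM at 50525 to 94200. NEFM was below HBA1 and COL1A1 of the lists that follow, so being counted does not by itself tell the cell type. Of the defining blood markers, PTPRC, CD3E and HBB had at most 3 estimated counts in any library and LYZ at most 5, while HBA1 of the same list had 293 to 588. Of the fibroblast markers, COL1A2 and DCN had at most 2 and LUM had 2 to 13, whereas PDGFRA had 80 to 149 and COL1A1 had 286 to 841. Of the endothelial markers, PECAM1 and CDH5 had at most 4, and VWF had 5 to 23. In bulk RNA, fewer cells of a kind and less RNA per cell cannot be told apart.

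The mitochondrial ribosome translates only the few messages encoded by mitochondrial DNA, all of them core subunits of the oxidative phosphorylation complexes. All of its proteins are made from nuclear genes in the cytosol and imported, so its assembly needs many separate promoters to be active together with the mitochondrial genome. Some of the proteins have counterparts in the bacterial ribosome, and others were added during the evolution of the organelle and are specific to mitochondria.

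The 6 members below recur in the results because they moved most after loss of TAF5, which is why the start of each promoter is shown. MRPL48, MRPL54 and MRPL42 are mitochondria-specific large-subunit proteins whose transcripts fell. MRPL57 (also mitochondria-specific), MRPL1 (the counterpart of bacterial L1, on the flexible stalk beside the tRNA exit site) and MRPL32 (the counterpart of bacterial L32, which matures by proteolysis in the organelle) are those whose transcripts rose. The sequences are from RefSeq, build GRCh38.p14, each on the plus strand, and hold 150 bases before the annotated start and the first 30 bases of the transcript. Capitals mark matches, on either strand, to any of 6 motifs searched: NRF1, ETS, YY1, a TATA box, an E-box and CCAAT.
MRPL48, chr11:73787724-73787903: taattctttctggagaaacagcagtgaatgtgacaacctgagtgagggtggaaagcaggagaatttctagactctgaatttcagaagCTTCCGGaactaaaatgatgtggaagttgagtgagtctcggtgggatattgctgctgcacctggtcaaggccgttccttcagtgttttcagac
MRPL54, chr19:3762532-3762711: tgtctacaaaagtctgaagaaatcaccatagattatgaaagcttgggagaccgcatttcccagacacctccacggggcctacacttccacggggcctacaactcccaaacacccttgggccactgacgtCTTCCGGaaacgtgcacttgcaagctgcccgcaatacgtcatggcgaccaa
MRPL42, chr12:93467364-93467543: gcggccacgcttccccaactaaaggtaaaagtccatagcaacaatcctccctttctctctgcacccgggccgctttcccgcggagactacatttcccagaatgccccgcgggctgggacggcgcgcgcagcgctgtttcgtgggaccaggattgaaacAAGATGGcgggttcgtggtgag
MRPL57, chr13:21176508-21176687: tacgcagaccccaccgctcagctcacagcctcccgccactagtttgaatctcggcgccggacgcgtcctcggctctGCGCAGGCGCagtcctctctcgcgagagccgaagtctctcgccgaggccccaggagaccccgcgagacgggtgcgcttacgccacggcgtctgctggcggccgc
MRPL1, chr4:77862680-77862859: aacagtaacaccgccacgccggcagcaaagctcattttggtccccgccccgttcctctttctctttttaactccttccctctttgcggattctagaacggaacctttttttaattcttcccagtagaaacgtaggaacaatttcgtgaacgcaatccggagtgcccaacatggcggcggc
MRPL32, chr7:42932226-42932405: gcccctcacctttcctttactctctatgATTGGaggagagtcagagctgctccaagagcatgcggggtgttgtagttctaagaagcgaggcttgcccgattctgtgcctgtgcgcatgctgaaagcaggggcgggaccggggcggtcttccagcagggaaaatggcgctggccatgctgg

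The ETS letters (CCGGAAG) stand on the minus strand of both MRPL48 and MRPL54. The YY1 letters (AAGATGG) of MRPL42 lie just inside the transcript, and the NRF1 letters of MRPL57 lie before its start. The MRPL1 stretch held none of the 6 motifs. Across windows of 250 bases before to 50 bases after the start, which were at hand for 69 members and 11524 protein-coding genes tested, the ETS letters were in 29 members (42.0%) and in 18.0% of all genes. The YY1 letters were in 23 members (33.3%) and in 7.01% of all. NRF1 letters were in 8 members (11.6%, against 10.9%), and TATA letters (TATAAA) were in 2 members, MRPL54 and MRPS15 (2.9%, against 6.08%). The E-box (CACGTG) was in 6 members (8.7%, against 9.81%) and the letters CCAAT were in 20 (29%, against 36.6%). These are matches of letters, not sites shown to be bound. The 6 printed promoters do not stand for all members. By the calls described below, 11 of the 29 members with ETS letters rose in siTAF5 against siNT and 8 fell. Of the 40 without them, 17 rose and 9 fell. In ΔE8 against FL, 3 of the 29 were higher and 10 lower, against 12 and 9 of the 40. Shares over all genes are given with each comparison below. A link between letters and direction was not tested.

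The members were moderately expressed, at levels that differed widely between genes. Their mean over the 12 libraries had a median of 55.3 CPM, with quartiles of 39.6 and 85.6, where all protein-coding genes tested had a median of 28.3. Per kilobase of transcript (GENCODE release 29, median protein-coding transcript length, 78 of the 79 rows), the median level was 53.2 CPM per kilobase. On this scale MRPL51, a mitochondria-specific large-subunit protein, was highest at 209.7, followed by MRPS34, a mitochondria-specific small-subunit protein, at 187.7. Apart from the second MRPS5 row, MRPL50 was lowest at 7.89 and MRPL1 next at 11.2. Summed over the members, the level was 5096 ± 32.9 CPM (SD, n = 3) in siNT, 5094 ± 47.5 in siTAF5, then 5628 ± 86.4 for FL and 5524 ± 55.3 for ΔE8. The siNT and siTAF5 sums, taken after trimmed-mean scaling, differed by less than 1 SD. The share of all counts taken by members, without that scaling, was higher in every siTAF5 library than in every siNT library. Every FL and ΔE8 library lay above both. The shares were 0.505% to 0.509% in siNT, 0.514% to 0.523% in siTAF5, and 0.547% to 0.560% and 0.549% to 0.562% in FL and ΔE8.

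**Figure D1:**
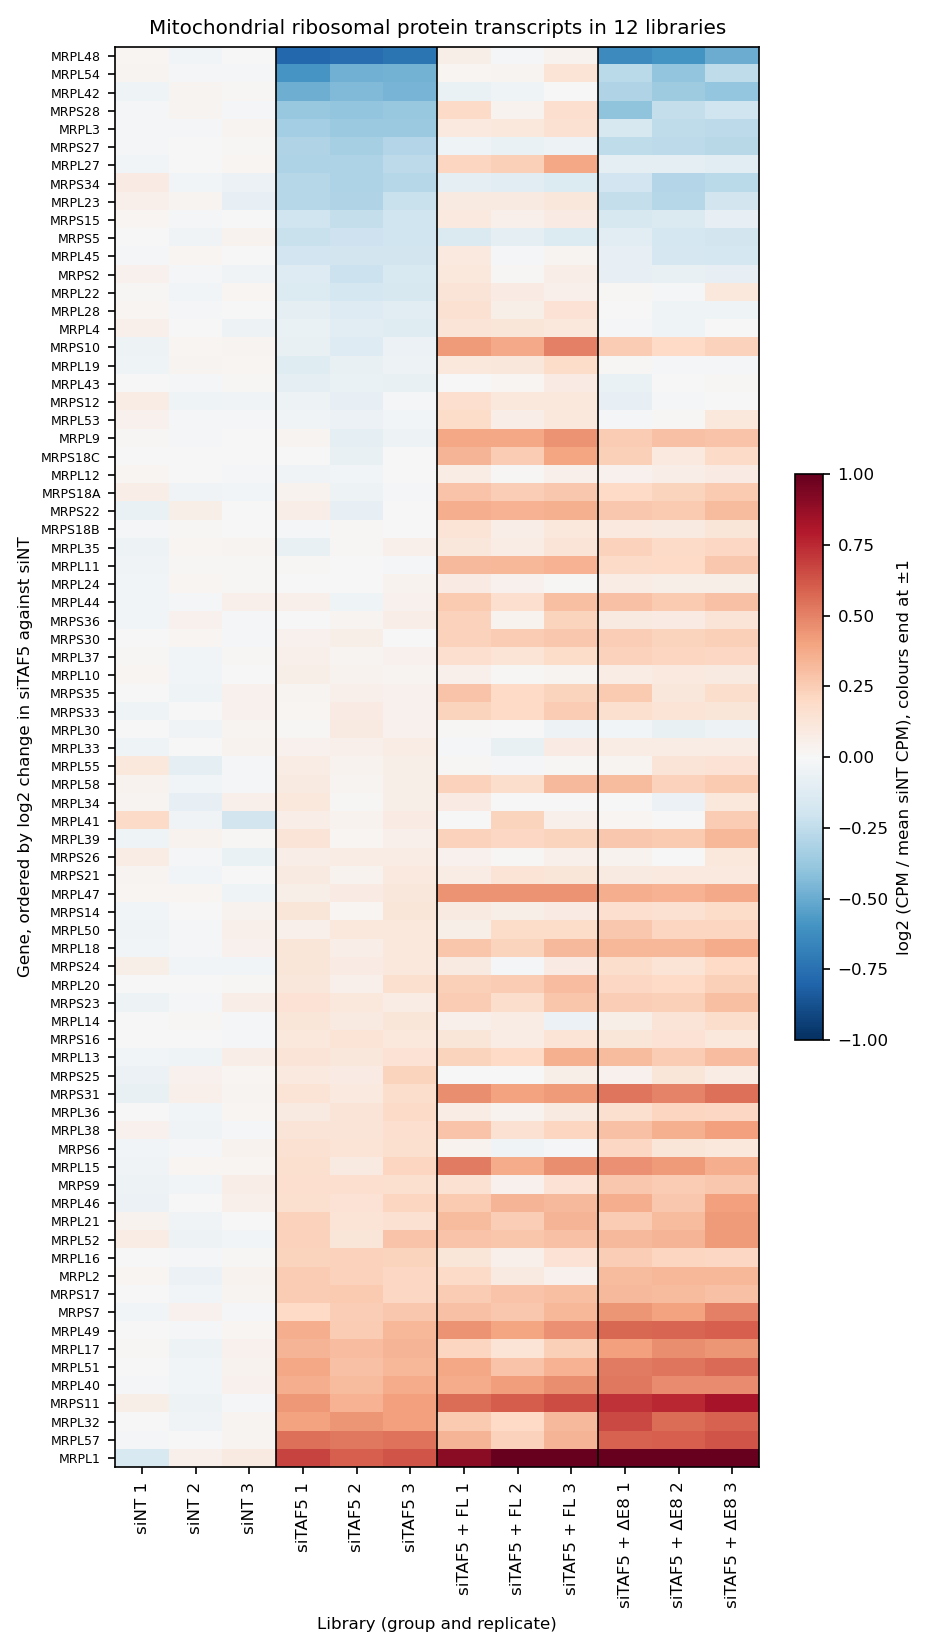
Heat map of 78 members (rows) by 12 libraries (columns), ordered by the change in siTAF5 and coloured by the log2 level relative to the mean of the 3 siNT libraries, with colours ending at ±1. MRPL48, low in siTAF5 and ΔE8 but not in FL, stands at the top, and MRPL1, higher in every other group than in siNT, at the bottom.

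Behind the nearly equal scaled sums of siNT and siTAF5, members moved in both directions when TAF5 was depleted. In siTAF5 against siNT, 32 of the 79 members rose (40.5%) and 19 fell (24.1%) by edgeR's quasi-likelihood test at a Benjamini-Hochberg adjusted p under 0.05, with 28 not called. Over all 19424 genes 24.7% rose and 25% fell, 49.7% called in all. Over the 14637 protein-coding genes tested 27% rose and 30.5% fell, 57.5% called in all. The share of members that rose was above both backgrounds. The share that fell was near that of all genes and below that of protein-coding genes. The members' median log2 change was 0.06 and that of all genes 0.00. The changes were small: the median size among called members was 0.17 on the log2 scale, against 0.27 for all called genes, and 2 members (2.53%) passed 1.5-fold, against 8.48% of all genes. The libraries of siTAF5 and siNT did not overlap for 54 of the 79 members, a larger share than the 57.3% of all genes.

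The deepest fall was that of MRPL48, which lies in the central protuberance of the large subunit. It was at 26.4, 25.5 and 26.1 CPM in siNT, at 15.1, 15.3 and 15.6 in siTAF5, at 27.1, 25.7 and 26.6 in FL, with ΔE8 at 16.7, 17.2 and 18.5. The siTAF5 and ΔE8 libraries were all lower than every siNT and FL library, and siNT and FL overlapped. In siTAF5 the log2 change from siNT was -0.76 ± 0.044 (SE), 1.69-fold lower, with an edgeR adjusted p of 3.76e-11.

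MRPL54 and MRPL42 were also low in siTAF5 and ΔE8. MRPL54 was at 37.4, 36.6 and 36.4 CPM in siNT, 24.5, 26.3 and 26.5 in siTAF5, 37.2, 37.6 and 40.4 in FL. The ΔE8 values were 30.6, 28.1 and 30.8. The ΔE8 libraries lay between those of siTAF5 and siNT without overlap, and the fall in siTAF5 was 1.43-fold (edgeR adjusted p = 8.29e-09). MRPL42 was at 156, 163 and 162 CPM in siNT, 115, 118 and 116 in siTAF5, 153, 155 and 160 in FL. The ΔE8 values were 130.5, 126 and 123. It fell 1.38-fold in siTAF5 (edgeR adjusted p = 7.32e-11), and the FL libraries overlapped those of siNT.

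The 3 next largest falls were those of MRPS28, the counterpart of bacterial S1, at 1.31-fold, of MRPL3, the counterpart of L3, at 1.29-fold, and of MRPS27, a pentatricopeptide repeat protein of the small subunit, at 1.24-fold. MRPL3 (chromosome 3, 131462212 to 131502983) is among the more abundant members, at 160, 160 and 165 CPM in siNT and 128, 125 and 125 in siTAF5. All of its siTAF5 libraries were below all of its siNT libraries. MRPS28 shares 111430 bases with an unnamed protein-coding gene on its own strand, so the division of reads between them is uncertain.

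Among the members that rose, MRPL1 moved most. It was at 8.92, 10.3 and 10.6 CPM in siNT, 15.9, 15.04 and 15.3 in siTAF5, 18.6, 20.3 and 21.4 in FL. The ΔE8 values were 21.2, 20.4 and 22.8. Each group lay above siNT, and FL and ΔE8 overlapped each other and lay above siTAF5. The rise in siTAF5 was 0.63 ± 0.066 on the log2 scale (SE), 1.55-fold, with an edgeR adjusted p of 1.51e-07.

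MRPL57 was at 39.6, 40.0 and 40.9 CPM in siNT, 59.0, 57.9 and 58.4 in siTAF5, 50.8, 47.1 and 50.8 in FL. The ΔE8 values were 60.4, 60.8 and 62.0. Its FL libraries lay between siNT and siTAF5, and those of ΔE8 were above siTAF5. It rose 1.45-fold in siTAF5 (edgeR adjusted p = 5.78e-11). MRPL32 was at 42.4, 41.3 and 43.2 CPM in siNT, 55.9, 57.5 and 56.3 in siTAF5, 50.7, 48.6 and 52.9 in FL. The ΔE8 values were 66.6, 62.2 and 63.7. It showed the same order as MRPL57 and rose 1.34-fold in siTAF5 (edgeR adjusted p = 6.35e-09).

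MRPS11, the counterpart of bacterial S11 on the platform of the small subunit (chromosome 15, 88467453 to 88480776), was at 29.4, 27.4 and 28.1 CPM in siNT and 38.2, 35.98 and 37.6 in siTAF5, 1.32-fold higher (edgeR adjusted p = 7.83e-08). An unnamed gene on the opposite strand covers its whole length, and no source used here says whether reads were counted by strand. The mitochondria-specific proteins MRPL40 and MRPL51 rose 1.27-fold and 1.26-fold. MRPL40 is likewise covered over its whole length on the opposite strand, by HIRA and C22orf39.

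**Figure D2:**
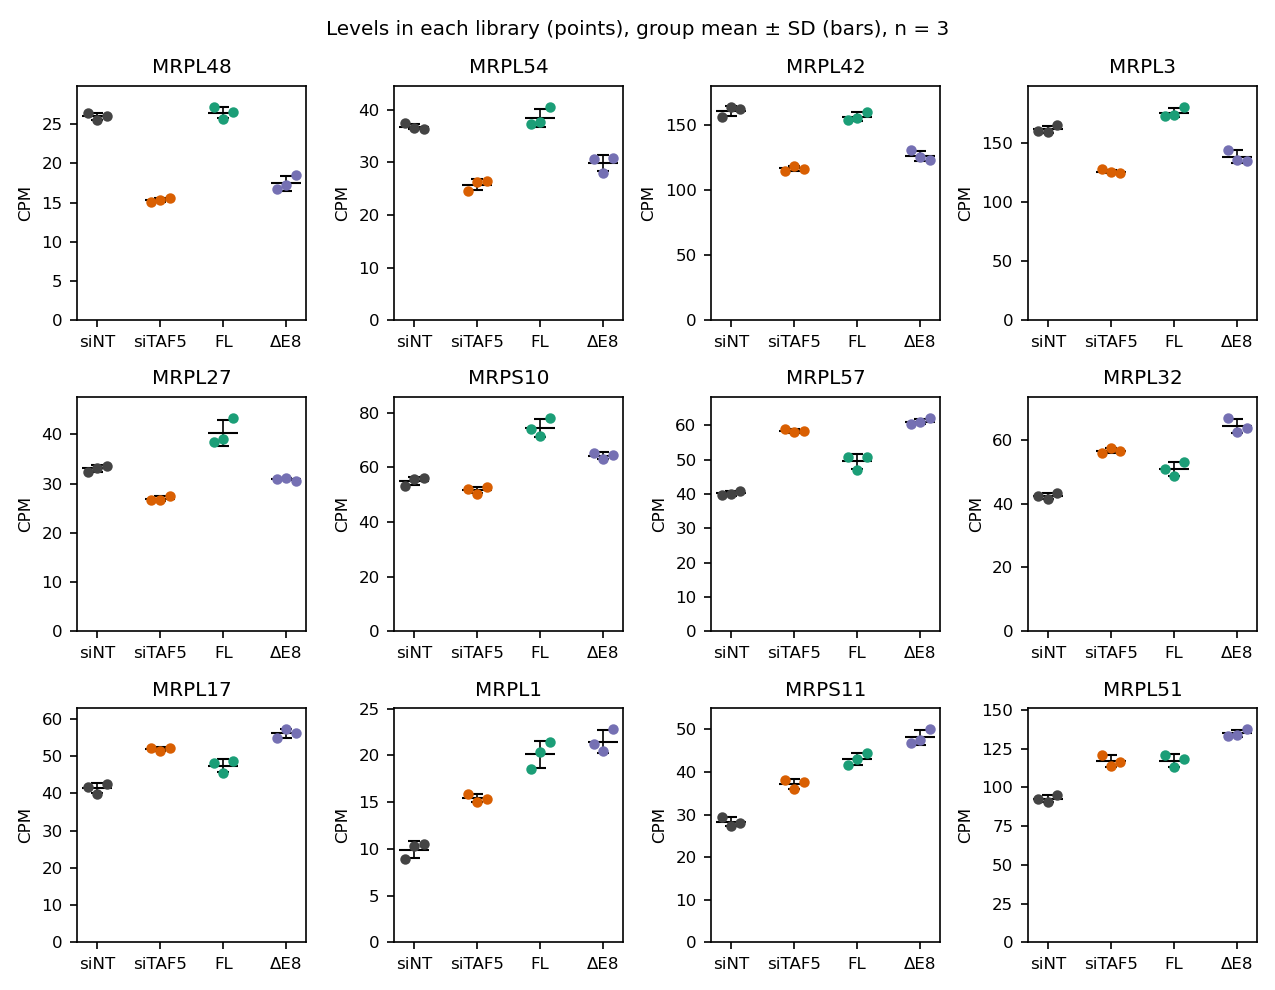
Levels in CPM of 12 named members in each library (points) with the group mean ± SD (bars, n = 3), for siNT, siTAF5, FL and ΔE8. MRPL48 stands near 26 in siNT and FL and near 15 to 18 in siTAF5 and ΔE8, while MRPL57 is lowest in siNT.

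By structural class, rises and falls were found in each, against 24.7% of all genes that rose and 25% that fell. Of the 30 large-subunit proteins with a bacterial counterpart 13 rose and 7 fell in siTAF5, and of the 21 specific to mitochondria 7 rose and 5 fell. Of the 16 small-subunit proteins with a bacterial counterpart 9 rose and 5 fell, and of the 10 specific to mitochondria 3 rose and 2 fell. The share that fell was 23.3%, 23.8%, 31.2% and 20% in these 4 classes, near that of all genes, and the share that rose was 43.3%, 33.3%, 56.2% and 30%. Near the peptidyl transferase centre, MRPL3 and MRPL27 fell and MRPL2 rose 1.17-fold. MRPL58, a peptidyl-tRNA hydrolase built into the large subunit, was at 29.5 ± 0.663 CPM in siNT and 30.7 ± 0.676 in siTAF5 (SD, n = 3) and was not called. At the exit of the peptide tunnel, MRPL23 fell 1.21-fold and MRPL22 1.11-fold, and MRPL45, which faces the inner membrane, fell 1.14-fold. Of the other tunnel-exit proteins, MRPL47 was 1.06-fold higher, a call that was lost without any 1 of the siTAF5 replicates, and MRPL24 was not called, with a log2 change of 0.01. None of the 3 stalk proteins that recruit translation factors was called: MRPL10 was 1.03-fold higher, and MRPL11 and MRPL12 differed by log2 changes of -0.00 and -0.02.

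In the small subunit, MRPS7 and MRPS9 of the head rose 1.18-fold and 1.12-fold, and MRPS10 of the head fell 1.06-fold, a call lost without siNT replicate 2, siNT replicate 3 or siTAF5 replicate 2. The decoding-centre protein MRPS12 was not called. MRPS34 fell 1.23-fold, from 216 ± 10.9 to 177 ± 1.74 CPM, and MRPS22 and MRPS35 were not called. None of the 3 related S18 proteins was called. MRPS30 and MRPS18A, which are built into the large subunit in spite of their names, were also not called. MRPS36, whose product is assigned to the 2-oxoglutarate dehydrogenase complex rather than to the ribosome, was at 26.9 ± 0.665 CPM in siNT and 27.5 ± 0.617 in siTAF5 and was not called.

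Most members were higher in FL than in siTAF5. The line of the siTAF5 cells is not given, and TAF5 in FL also exceeded that in siNT. The transgene, its level and the line therefore cannot be told apart in this comparison. In FL against siTAF5, 49 members rose (62%) and 8 fell (10.1%) by edgeR's test. The background was 24.4% in each direction, 48.8% in all. The median log2 change was 0.13, against -0.01 for all genes. The groups did not overlap for 60 of the 79 members, a larger share than the 56.3% of all genes. Only 1 member (1.27%) passed 1.5-fold, against 8.06% of all genes. The rises were spread over the classes: 18 of 30 and 14 of 21 in the large subunit, and 8 of 16 and 8 of 10 in the small subunit, bacterial counterparts first. With library totals in place of the trimmed-mean scaling, 38 rose and 13 fell. All genes shifted likewise: 3748 rose and 5788 fell with library totals, against 4745 and 4732 with trimmed-mean scaling.

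MRPL48 rose most, 1.72-fold (log2 change 0.79 ± 0.045 SE, edgeR adjusted p = 2.54e-11). MRPL54 rose 1.49-fold and MRPL3 1.40-fold. MRPL27, the counterpart of a bacterial protein whose tail reaches the peptidyl transferase centre (chromosome 17, 50367857 to 50373207), was at 26.7, 26.7 and 27.5 CPM in siTAF5 and 38.5, 39.1 and 43.3 in FL. It rose 1.49-fold (edgeR adjusted p = 6.64e-10), and its FL libraries were also above those of siNT, at 32.4, 33.2 and 33.6. Its ΔE8 libraries, at 30.9, 31.1 and 30.6, lay between siTAF5 and siNT.

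MRPS10, a head protein of the small subunit (chromosome 6, 42206807 to 42217861), was at 52.2, 50.4 and 52.7 CPM in siTAF5 and 73.9, 71.4 and 77.95 in FL, 1.44-fold higher (edgeR adjusted p = 1.86e-10). In siNT it was at 53.2, 55.7 and 56.0, so FL was above both. MRPS28 rose 1.44-fold. Rises of members not called in siTAF5 against siNT included those of MRPL9 at 1.36-fold, the stalk protein MRPL11 at 1.26-fold, MRPS22 at 1.29-fold and MRPS18C at 1.28-fold, while MRPS18B rose 1.08-fold and MRPS18A 1.22-fold.

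The 8 members that fell in FL were led by MRPL57 at 1.18-fold (edgeR adjusted p = 4.21e-06), MRPL32 at 1.11-fold, and MRPS6, the counterpart of bacterial S6, at 1.11-fold. MRPL17, MRPS25 and MRPL16 fell 1.09-fold each, and the call of MRPS25 was lost without siTAF5 replicate 3 or FL replicate 2. MRPL17 (chromosome 11, 6680385 to 6683340) was at 52.4, 51.3 and 52.3 CPM in siTAF5 and 48.2, 45.5 and 48.8 in FL. Its FL libraries were all below siTAF5 and all above siNT, at 41.7, 39.9 and 42.6.

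Members were also higher in ΔE8 than in siTAF5, by less for several of those above. The same limit on line and TAF5 level holds. In ΔE8 against siTAF5, 48 rose (60.8%) and 1 fell (1.27%), against 20% and 20.6% of all genes, or 40.6% called in all. The median log2 change was 0.10, against -0.01 for all genes, and no member passed 1.5-fold, against 4.63% of all genes. Groups did not overlap for 62 of the 79 members, a larger share than the 49.9% of all genes. MRPL1 rose 1.39-fold, MRPS31, a mitochondria-specific small-subunit protein, 1.31-fold and MRPS11 1.29-fold. MRPL48 rose 1.13-fold (edgeR adjusted p = 0.00411) and MRPL54 1.15-fold. The member that fell, MRPL30, the counterpart of L30, was at 72.2, 76.5 and 74.1 CPM in siTAF5 and 70.3, 68.3 and 69.3 in ΔE8, 1.07-fold lower (edgeR adjusted p = 0.0101). That call was lost without siTAF5 replicate 2 or without ΔE8 replicate 2. An unnamed protein-coding gene on the same strand covers the whole length of MRPL30, so the division of reads between them is uncertain.

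The comparison that bears most directly on exon 8 is ΔE8 against FL. These groups differ in the TAF5 isoform, in its inducible line and in the doxycycline dose the labels give. They also differ in TAF5 level, with means of 105 CPM in FL and 88.0 in ΔE8 and no overlap of libraries. Isoform, line, dose and level cannot be told apart. In this comparison 17 members were higher in ΔE8 (21.5%) and 21 lower (26.6%), against 17.3% and 19.7% of all genes, or 37% called in all. The median log2 change was 0.01 for the members and -0.01 for all genes. It turned negative for the members without FL replicate 3 or without ΔE8 replicate 3. The groups did not overlap for 49 of the 79 members, a larger share than the 45.7% of all genes. The median size among called members was 0.15, and 1 member (1.27%), MRPL48, passed 1.5-fold, against 3.75% of all genes. With library totals in place of the trimmed-mean scaling, 25 were higher and 20 lower. All genes shifted likewise: 4072 were higher and 3184 lower with library totals, against 3359 and 3819 with trimmed-mean scaling.

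Relative to FL, MRPL48 was 1.52-fold lower in ΔE8 (log2 change -0.61 ± 0.044 SE, edgeR adjusted p = 2.23e-09), with no overlap of libraries. MRPS28 was at 22.8, 20.5 and 22.4 CPM in FL and 15.1, 16.9 and 17.4 in ΔE8, 1.34-fold lower (edgeR adjusted p = 3.3e-06). MRPL27 was 1.30-fold, MRPL54 1.29-fold and MRPL3 1.27-fold lower. MRPL23, at the tunnel exit, was at 58.3, 58.3 and 59.3 CPM in FL and 46.5, 45.1 and 48.3 in ΔE8, 1.26-fold lower (edgeR adjusted p = 6.08e-07). Its siTAF5 libraries, at 44.9, 44.5 and 46.9, overlapped those of ΔE8.

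MRPL32 was 1.27-fold higher in ΔE8 than in FL (edgeR adjusted p = 2.32e-07) and MRPL57 1.23-fold. MRPL17 was 1.18-fold higher, MRPL2, a core protein beside the peptidyl transferase centre, 1.16-fold, MRPL51 1.15-fold and MRPS11 1.12-fold. Among the head proteins MRPS7 and MRPS9 were 1.11-fold higher each, and MRPS10 was 1.16-fold lower. The stalk protein MRPL11 was 1.08-fold lower, and MRPL10 and MRPL12 were not called. MRPS12 was 1.12-fold and MRPS18C 1.11-fold lower in ΔE8, the latter not called without FL replicate 1, FL replicate 3 or ΔE8 replicate 2. MRPS30, MRPS18A and MRPS18B were not called, with log2 changes of -0.02, -0.04 and -0.00.

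**Figure D3:**
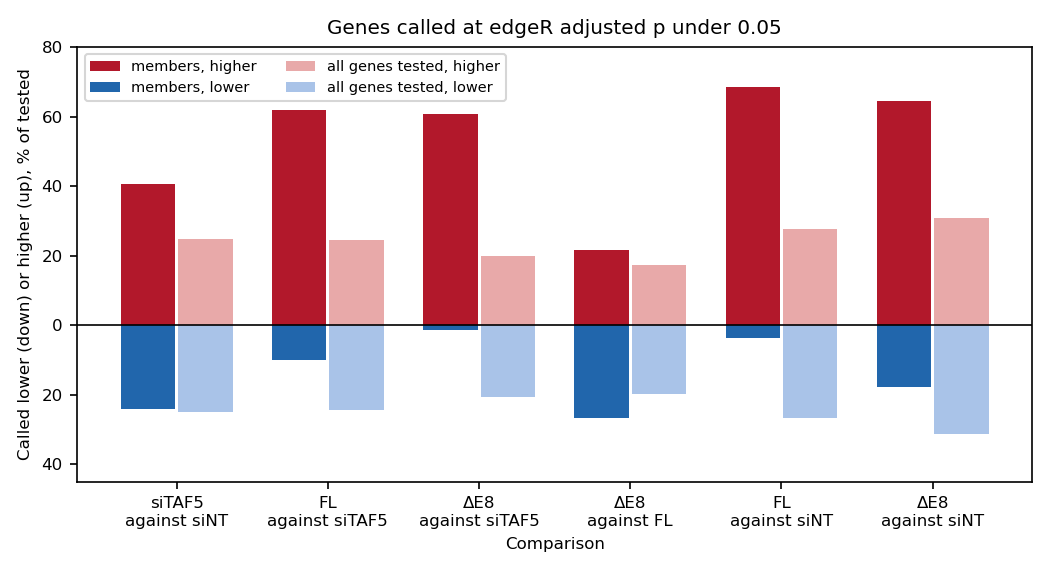
Share of the 79 members called higher and lower in each of the 6 comparisons (edgeR adjusted p under 0.05), beside the same share over all 19424 genes tested. In siTAF5 against siNT and ΔE8 against FL the members are split between both directions, and in the other comparisons most called members are higher.

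The comparison of siTAF5 with siNT and that of ΔE8 with FL share no library. Of the 19 members that fell in siTAF5, 16 were lower in ΔE8 than in FL (84.2% of the 19 and 76.2% of the 21), and 0 were higher. Over all genes, 59.6% of those that fell in siTAF5 were lower in ΔE8, and these made up 75.6% of the latter. Of the 32 members that rose in siTAF5, 16 were higher in ΔE8 than in FL (50% of the 32 and 94.1% of the 17), against 53.2% and 76% over all genes. Only MRPL47, a tunnel-exit protein, was called in opposite directions, 1.06-fold higher in siTAF5 and 1.06-fold lower in ΔE8. Neither call was stable: the first was lost without any 1 of the siTAF5 replicates, and the second without any 1 of the FL or ΔE8 replicates.

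Among the 16 members lower in both comparisons were MRPL48, MRPL54, MRPL42, MRPL3, MRPL27, MRPL23, MRPL45, MRPS10, MRPS27, MRPS28 and MRPS34. The 16 members higher in both included MRPL57, MRPL32, MRPL17, MRPL2, MRPL51, MRPS6, MRPS7, MRPS9 and MRPS11. Across the 79 members the log2 changes of the 2 comparisons had a Pearson r of 0.883 and a Spearman rho of 0.870, against 0.515 and 0.609 across all genes. Of the 19424 genes tested 14637 are protein-coding, and these had a median of 28.3 CPM, against 55.3 for the members. No set matched in type or level was compared, so the gap is not shown to be particular to the members. The correlations are descriptions over genes measured in the same libraries, and genes are not independent replicates.

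**Figure D4:**
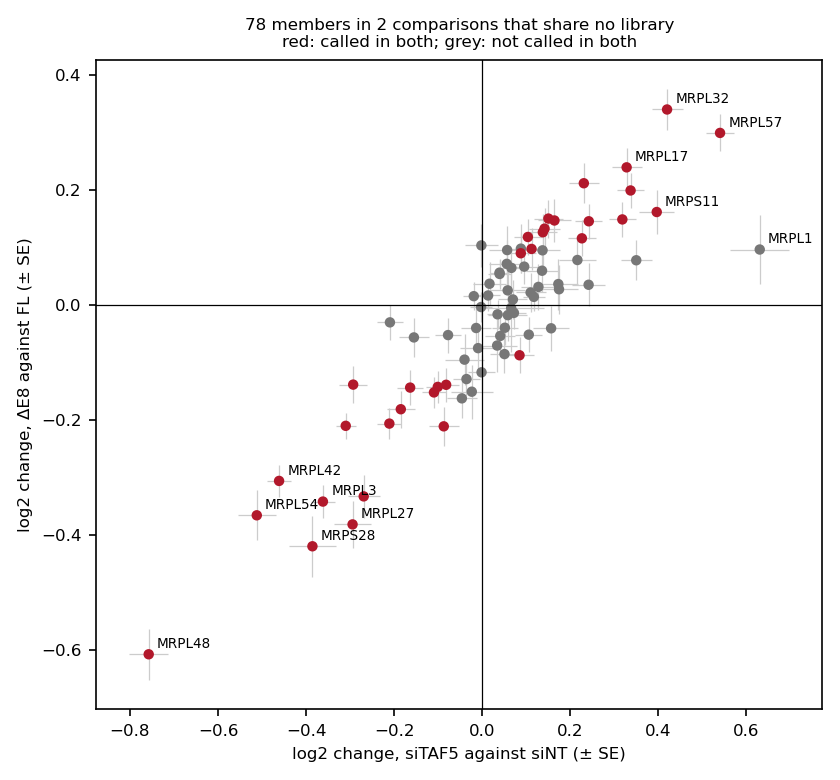
Log2 change of 78 members in siTAF5 against siNT (horizontal) and in ΔE8 against FL (vertical), which share no library. MRPL48 lies at the lower left and MRPL57 and MRPL32 at the upper right, while MRPL1 lies far to the right near 0 on the vertical axis.

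Both rescued groups stood above the non-targeting control for most members. In FL against siNT, 54 members were higher (68.4%) and 3 lower (3.8%), against 27.8% and 26.8% of all genes, or 54.6% called in all. In ΔE8 against siNT, 51 were higher (64.6%) and 14 lower (17.7%), against 30.8% and 31.4%, or 62.2% called in all. The median log2 changes were 0.13 in FL and 0.17 in ΔE8, against 0.01 and -0.00 for all genes. Libraries did not overlap for 57 of the 79 members in FL against siNT and for 65 in ΔE8 against siNT. Both are larger shares than the 59.7% and 65.7% of all genes. In these comparisons 2 (2.53%) and 5 (6.33%) members passed 1.5-fold, against 10.3% and 17.3% of all genes. The siNT libraries are common to these comparisons and to siTAF5 against siNT. FL against siNT and ΔE8 against siTAF5 share no library, and of the 54 members higher in the former 43 were higher in the latter (79.6% of the 54 and 89.6% of the 48), against 61% and 84.6% over all genes.

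MRPL1 was 2.01-fold higher in FL than in siNT (edgeR adjusted p = 1.76e-10) and 2.15-fold higher in ΔE8 (1.17e-11). MRPS11 was at 41.6, 43.0 and 44.4 CPM in FL and 46.8, 47.6 and 50.04 in ΔE8, so its 4 groups were ordered siNT, siTAF5, FL and ΔE8 without overlap. It was 1.52-fold higher than siNT in FL and 1.70-fold in ΔE8. MRPL15, a core large-subunit protein, was 1.37-fold higher in FL, and MRPL57 was 1.52-fold higher in ΔE8. By group means, 21 members had the order siNT, siTAF5, FL, ΔE8 from lowest to highest, and 14 had the order siTAF5, ΔE8, siNT, FL. The lowest mean was in siNT for 47 members and in siTAF5 for 29, and the highest was in ΔE8 for 36 and in FL for 32.

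The members lower in FL than in siNT were MRPS34, MRPS27 and MRPS5, and the call of MRPS27, 1.04-fold lower, was lost without any 1 of the siNT replicates and without FL replicate 1 or 3. MRPS5, the counterpart of bacterial S5, was at 63.6, 62.0 and 65.1 CPM in siNT, 57.5, 59.5 and 58.0 in FL, and 54.4, 55.1 and 55.4 in siTAF5. Its FL libraries lay between those of siNT and siTAF5, 1.09-fold below siNT (edgeR adjusted p = 0.00132). In ΔE8 the largest falls from siNT were those of MRPL48 at 1.49-fold (edgeR adjusted p = 4.51e-10), MRPL42 at 1.27-fold and MRPL54 at 1.24-fold. None of these 3 was called in FL against siNT, with log2 changes of 0.03, -0.04 and 0.06.

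A further 5 proteins of the mitochondrial ribosome carry other names. CHCHD1, a small-subunit protein, rose 1.19-fold in siTAF5 (edgeR adjusted p = 1.27e-05) and was 1.11-fold higher in ΔE8 than in FL (0.00391). DAP3, a small-subunit GTP-binding protein first described in cell death, rose 1.05-fold in siTAF5 and was 1.08-fold higher in ΔE8 than in FL. GADD45GIP1, in the large subunit, rose 1.21-fold in FL against siTAF5, and AURKAIP1 and PTCD3 were called in none of the comparisons among siTAF5 and siNT, FL and siTAF5, and ΔE8 and FL.

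For the related lists below, the shares of all genes were 24.7% higher and 25% lower in siTAF5 against siNT, 24.4% each way in FL against siTAF5, and 17.3% and 19.7% in ΔE8 against FL. Of 27 assembly factors of the mitochondrial ribosome, 10 rose (37%) and 8 fell (29.6%) in siTAF5, 15 rose and 4 fell in FL against siTAF5, and 6 were higher and 4 lower in ΔE8 than in FL. TRUB2, which modifies mitochondrial RNA, rose 1.46-fold in siTAF5 (edgeR adjusted p = 5.27e-11) and was 1.17-fold higher in ΔE8 than in FL. DHX30, an RNA helicase, fell 1.12-fold in siTAF5, rose 1.26-fold in FL and was 1.08-fold lower in ΔE8 than in FL. Of 15 mitochondrial translation factors, 3 rose (20%) and 5 fell (33.3%) in siTAF5, 7 rose and 4 fell in FL against siTAF5, and 3 were higher and 6 lower in ΔE8 than in FL. The elongation factor GFM1 rose 1.28-fold in FL (edgeR adjusted p = 3.98e-08) and was 1.17-fold lower in ΔE8.

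Of 17 genes of mitochondrial transcription and RNA processing, 4 rose (23.5%) and 7 fell (41.2%) in siTAF5, and 11 rose and 2 fell in FL against siTAF5. TFAM, which packages mitochondrial DNA and activates its promoters, rose 1.25-fold in siTAF5 (edgeR adjusted p = 1.24e-08), and the mitochondrial RNA polymerase gene POLRMT fell 1.15-fold. Of 9 regulators of nuclear mitochondrial genes, 1 rose (11.1%) and 5 fell (55.6%) in siTAF5, and 0 were higher and 4 lower in ΔE8 than in FL. In FL against siTAF5, 4 of the 9 rose and 2 fell. GABPA, which encodes the DNA-binding subunit of an ETS factor, fell 1.22-fold in siTAF5 (edgeR adjusted p = 4.68e-07), rose 1.23-fold in FL and was 1.15-fold lower in ΔE8 than in FL (5.49e-05). MYC and ESRRA had other orders of the groups than GABPA. Mean CPM in siNT, siTAF5, FL and ΔE8 was 251, 221, 124 and 127 for MYC. For ESRRA it was 33.9, 23.1, 25.3 and 20.5.

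Among the 13 messages that the mitochondrial ribosome translates, every one that was called was lower, never higher. In siTAF5 against siNT 10 fell and 0 rose, with MT-ND5 1.28-fold lower (edgeR adjusted p = 2.44e-05). The libraries of these groups did not overlap for only 4 of the 13, a smaller share than the 57.3% of all genes. The siNT libraries were themselves spread, with 0.973%, 0.921% and 1.13% of all counts in replicates 1, 2 and 3. In FL against siTAF5 6 fell and 0 rose, with MT-CO1 1.22-fold lower, while 3 of the 13 had a positive log2 change without a call. In ΔE8 against FL none was called at an adjusted p under 0.05. Their share of all counts was 0.921% to 1.13% in siNT, 0.869% to 0.952% in siTAF5, and 0.767% to 0.793% and 0.734% to 0.818% in the rescued groups FL and ΔE8, so it was highest where most members were lowest. Its part in the members' changes was not tested.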

How the data were processed

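Polyadenylated RNA of 12 libraries, 3 in each of 4 groups taken from the sample titles, was analysed. The authors deposited estimated counts per gene, not normalized, as the values show, since 46.5% of entries were not whole. Cutadapt 1.18, STAR 2.7.0f, Partek 10.0.23.0531, DESeq2 and hg38 are named in the submitters' processing notes. No source used here names the quantifier, the annotation release or the strand setting. The design assumed whole counts, and the estimates were rounded, which changed library totals by at most 91.3 counts. Rounding aside, reads of processed pseudogenes and overlapping genes may be split: 44 members overlap another gene, 17 of them on the same strand. They include named members for which no overlap is mentioned above, such as MRPL2 and MRPL12.

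In R 4.3.3, edgeR 4.0.16 fitted 1 quasi-likelihood model to the 12 libraries, with trimmed-mean scaling, genes kept at a minimum count of 10, 6 two-sided comparisons and Benjamini-Hochberg adjustment over 19424 genes, at a threshold of 0.05. The common biological coefficient of variation was 2.82%. Levels are CPM, counts scaled to 1 M per library after trimmed-mean scaling. No spike-in was analysed, so every change is relative to most other genes. Totals of 41.8 to 62.5 M limit precision less than the spread between libraries, since chi-square over its degrees of freedom was 2.61 to 5.16 between replicates.

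Named were the 6 largest rises and 6 largest falls among called members without overlap in siTAF5 against siNT, FL against siTAF5 and ΔE8 against FL, the first 3 each way in the other comparisons, and members fixed by role, including the highest and lowest per length. From the other lists, up to 3 genes with the smallest adjusted p in a comparison could be named. MRPL9, MRPL24, MRPL47, MYC, ESRRA and the examples shared between comparisons were named after their values were seen. Members and lists were chosen with earlier results of these data known. The model was tested on simulated data. Alternatives were other scalings, filters on low counts, fits of only the groups compared, a replicate block, DESeq2 1.42.0 and leaving out each library.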

Additional observations from a re-analysis of the deposited data

How the results depend on the processing

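No called member changed direction under any of the 20 alternatives, and calls held in all of them for 37 of 51 members in siTAF5 against siNT, 43 of 57 in FL against siTAF5, 40 of 49 in ΔE8 against siTAF5, 33 of 38 in ΔE8 against FL, 46 of 57 in FL against siNT and 56 of 65 in ΔE8 against siNT. MRPL47, MRPS14 and MRPS21 lost their call in siTAF5 against siNT under 12 alternatives each. With library totals only, 13 members fell in FL against siTAF5, where 5788 of all 19424 genes fell. The members' median in ΔE8 against FL was then 0.0369, and that of all genes 0.0178. Leaving out 1 library at a time gave 22 to 32 rises and 16 to 19 falls in siTAF5 against siNT, 43 to 50 and 6 to 8 in FL against siTAF5, 45 to 51 and 0 to 1 in ΔE8 against siTAF5, 15 to 19 and 19 to 22 in ΔE8 against FL, 47 to 54 and 2 to 3 in FL against siNT, and 47 to 52 and 12 to 14 in ΔE8 against siNT. The 22 came without siTAF5 replicate 3. The members' median in ΔE8 against FL, which lies close to 0, was -0.000107 without FL replicate 3, -0.0100 without ΔE8 replicate 3 and 0.0256 without ΔE8 replicate 2, and its range over these fits was -0.0100 to 0.0256. Replicate numbers did not pair the libraries: same-numbered libraries of different groups had correlations of -0.116 to 0.160 (median 0.034) in their deviations from group means, and 7 correlated best with their own number. With a replicate block, 32 members rose and 19 fell in siTAF5 against siNT. The smallest change called was 1.04-fold, that of MRPS27 in FL against siNT.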

Other observations

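Protein-coding genes on the opposite strand that start within 1000 bases upstream of a member's start give 19 divergent pairs for 18 members, including the second MRPS5 row. Genes whose start lies inside the member, such as TWNK in MRPL43, are left out. In siTAF5 against siNT both genes were called by edgeR in 9 pairs, 5 in the same direction and 4 in opposite directions. In ΔE8 against FL both were called in 7 pairs, 2 in the same direction and 5 in opposite directions. In the other comparisons the same direction was more common. The same and opposite counts were 5 and 3 in FL against siTAF5 and 6 and 1 in ΔE8 against siTAF5. Against siNT they were 9 and 0 in FL and 11 and 2 in ΔE8. Shares for divergent pairs over all genes were not computed, so these counts have no background. MRPL27 and EME1, a DNA repair nuclease subunit gene whose start is 13 bases away, both fell in siTAF5, with log2 changes of -0.29 and -0.24, and both were lower in ΔE8 than in FL, with -0.38 and -0.20. MRPL49 and FAU, 6 bases apart, went opposite ways: MRPL49 rose by 0.32 and FAU, which encodes a fusion containing a cytosolic ribosomal protein, fell by 0.10 in siTAF5. MRPL54 fell while APBA3, 990 bases away, rose by 0.40. The members MRPS11 and MRPL46 start 63 bases apart, and both rose in siTAF5, by 0.40 and 0.17. MRPS12 was not called in siTAF5, with a log2 change of -0.05, whereas SARS2, a mitochondrial seryl-tRNA synthetase gene 181 bases away, fell by 0.43.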
